A study of Mus musculus with 52 samples.

Results

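The mRNA levels of 10 genes of the circadian clock were followed in the livers of mice given a single dose of 1 of 8 chemicals or of the vehicle. The 10 genes were Arntl, Clock, Npas2, Nr1d1, Nr1d2, Dbp, Tef, Per1, Per2 and Per3, and they were found by their gene symbol in the array annotation, where a probe set had to carry that symbol alone. They had 19 of the 22626 probe sets that remained after removal of Affymetrix controls, and 18 of the 19 passed the filter on low signal that left 18349 probe sets (10755 genes). The probe set that did not pass was 1421036_at, 1 of the 2 for Npas2. Dbp always means the gene here, and the chemical with the abbreviation DBP is written out as dibenzo[a,l]pyrene.

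All mice were 9-week-old B6C3F1 males that received 1 intraperitoneal injection, and livers were taken at 4 h, 20 h, 14 days and 28 days. There were 52 arrays, 13 at each time. The RNA of an array came from a pool of 5 mice, so the arrays hold no spread between mice. Of the 6 genotoxic chemicals, 3 had a saline control of their own, namely ethylnitrosourea (ENU) at 150 mg/kg, dimethylnitrosamine (DMN) at 5 mg/kg and dipropylnitrosamine (DPN) at 250 mg/kg. The other 3 shared an olive oil control, and these were o-aminoazotoluene (AAT) at 300 mg/kg, 7,12-dimethylbenz[a]anthracene (DMBA) at 20 mg/kg and dibenzo[a,l]pyrene at 6 mg/kg. The non-genotoxic chemicals were ethanol (EtOH) at 1000 mg/kg and phenobarbital (PB) at 30 mg/kg, with 1 more saline control for both. A control and the chemicals compared with it are called a control set below, and the set of ethanol and phenobarbital is called the saline set. The 5 controls of a time are separate pools, and p-values for the controls by time measure only the spread between such pools. In the fits of treated arrays and of classes of chemicals, the spread is that between chemicals. In the fit of set and time described below, it is that between the control and treated arrays of a set and time. No source used here gives the hour of the day at which mice were injected or livers were taken.

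The saline set at 20 h goes against its labels in 1 gene. Cyp2b10, which phenobarbital induces, was 11.48 in the array labelled as its saline control and 8.24 in the array labelled phenobarbital, and the array labelled ethanol had 7.70. At 4 h the phenobarbital array had 11.98 and its control 8.28. Whether the control and the phenobarbital array of 20 h were exchanged was not tested, and with such an exchange every phenobarbital ratio of that time would change its sign and the ethanol ratios would have another control. Ratios and class effects of this set at 20 h are therefore given with that doubt, and tallies also without the set, while the mean of its 3 arrays does not depend on which is which. The array labelled ethanol at 20 h also had a Gapdh signal ratio of the 3′ to the 5′ probe set of 3.13 on the log2 scale, where the other 51 ran from -0.51 to 0.34.

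The clock of a liver cell is a loop of transcription that runs through about a day. ARNTL (also called BMAL1) binds DNA as a partner of CLOCK or of NPAS2 and activates the Per, Nr1d and Dbp genes through E-boxes. The PER proteins repress this activator. The nuclear receptors encoded by Nr1d1 and Nr1d2 (REV-ERB alpha and beta) repress Arntl through a response element called RORE, so that Arntl and its targets peak at opposite phases. DBP and TEF are factors that bind D-boxes and pass the rhythm on to genes of liver metabolism. In mouse liver Dbp and Arntl are therefore widely used to read the state of the clock.

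The elements of this loop can be seen in the start regions of some members. RefSeq start regions (build GRCm38.p6, 250 bases before to 50 bases after a start) were found for 9 of the 10 genes, with 14 regions in all. Both strands were searched for the E-box CACGTG, for the D-box as TTATGTAA or TTACGTAA, and for RORE, and no match of 1 element overlapped a match of another. Among all 32851 regions of 300 bases, 7.15% held the E-box, 1.06% the D-box and 0.773% RORE. Matches were found in Per1, Tef, Per3 and Arntl, and no match was found in the regions of Clock, Npas2, Nr1d1, Nr1d2 and Dbp. The bases upstream of the start are shown for Per1, for the first of the 2 starts of Tef with a match and for Per3, with the matches in capitals, because the Per1 and Tef genes carry the element of the activator and Per3 carries the element of DBP and TEF.
Per1, chr11:69098699-69098948, plus strand: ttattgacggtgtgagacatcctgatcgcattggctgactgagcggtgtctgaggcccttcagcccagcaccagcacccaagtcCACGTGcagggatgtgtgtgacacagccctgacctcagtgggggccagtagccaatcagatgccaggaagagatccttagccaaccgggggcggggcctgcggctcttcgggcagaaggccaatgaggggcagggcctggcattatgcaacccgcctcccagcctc
Tef, chr15:81802423-81802672, plus strand: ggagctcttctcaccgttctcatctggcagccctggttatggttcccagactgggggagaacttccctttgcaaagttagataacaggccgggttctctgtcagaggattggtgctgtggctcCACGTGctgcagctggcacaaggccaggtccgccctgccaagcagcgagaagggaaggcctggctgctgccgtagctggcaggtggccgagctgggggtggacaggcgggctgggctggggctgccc
Per3, chr4:151044666-151044915, minus strand: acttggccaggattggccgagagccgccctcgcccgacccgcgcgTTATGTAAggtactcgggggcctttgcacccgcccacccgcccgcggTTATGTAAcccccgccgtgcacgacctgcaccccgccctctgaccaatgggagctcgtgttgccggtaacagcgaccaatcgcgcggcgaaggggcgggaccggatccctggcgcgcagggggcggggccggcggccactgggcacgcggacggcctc
The Arntl match lay 28 bases into the transcript of 1 of its 2 annotated starts, and is shown with the bases around it.
Arntl, chr7:113207528-113207557, plus strand: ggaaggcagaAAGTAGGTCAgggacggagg

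Signal was read as log2 of the scaled intensity, with a floor at 5.02, and each gene was read from its brightest probe set. Levels of different genes were not compared with each other, since probe sets differ in brightness. In the controls the members covered a wide range of levels. Dbp had a 16.5-fold range over the 20 controls, Arntl 12.7-fold, Nr1d1 8.48-fold, Nr1d2 7.41-fold, Per1 6.77-fold, Per3 5.5-fold, Tef 4.34-fold, Per2 4.02-fold, Npas2 2.8-fold and Clock 2.58-fold. Arntl, Per1 and Npas2 reached the floor in some controls, so for these 3 genes the range is a lower bound. The median range over all probe sets was 1.04 on the log2 scale, and that of Dbp was 4.05.

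Time after injection did not separate the controls for these genes. Dbp at 4 h was 9.04 in the olive oil control, 9.79 in the ENU control, 8.49 in the DMN control, 9.27 in the DPN control and 9.12 in the saline control. At 20 h, in the same order, Dbp was 5.95, 9.59, 7.26, 9.43 and 5.89. The 5 controls were thus close at 4 h, while at 20 h those of the ENU and DPN sets were as high as before and those of the olive oil and saline sets were far lower. At 14 days Dbp was 5.92, 9.09, 7.56, 9.22 and 9.76, and at 28 days it was 6.12, 9.65, 7.01, 9.65 and 5.74. The saline control alone was high, low, high and low over the 4 times.

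Arntl, the activator, ran opposite to Dbp. At 4 h it was 5.47 in the olive oil control, 5.69 in the ENU control, 6.52 in the DMN control, 5.85 in the DPN control and 5.78 in the saline control. At 20 h it was 8.18, 5.84, 7.61, 5.02 (the floor) and 8.08 in the same order. At 14 days Arntl was 7.72, 5.18, 6.96, 6.37 and 5.77, and at 28 days 8.69, 5.22, 7.46, 5.77 and 8.32. The controls with low Dbp were those with high Arntl. Over the 20 controls the Pearson correlation of the 2 genes was -0.95, and over the 32 treated arrays it was -0.92. These arrays share control sets, times and the scaling, so the correlation is a description only.

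When the 20 controls were compared by time in limma, 0 of 18 member probe sets passed a Benjamini-Hochberg adjusted p of 0.05, against 9.38% of all probe sets (5147 probe sets and 0 members had an unadjusted p under 0.05). For single pairs of times the members called were also 0 of 18. The share called among all probe sets was 0.0218% for 20 h minus 4 h, 8.29% for 14 days minus 4 h and 0.104% for 28 days minus 4 h. It was 13.1% for 14 days minus 20 h, 0% for 28 days minus 20 h and 14.4% for 28 days minus 14 days. At an unadjusted p under 0.05 there were 1, 2 and 2 members for 14 days minus 4 h, 28 days minus 4 h and 28 days minus 14 days, and 0 for the other pairs. Leaving out the doubtful saline control of 20 h left 0 members called at 20 h minus 4 h. Dbp at 20 h minus 4 h in the controls was -1.52 with an SE of 0.90 (adjusted p = 0.896), and Arntl was 1.08 with an SE of 0.69 (adjusted p = 0.917). The SD of Dbp over 5 controls was 0.468 at 4 h and 1.81 at 20 h. The median difference of the 18 member probe sets at 20 h minus 4 h was -0.11 against 0.0046 over all probe sets, a value that mixes genes of opposite phase.

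**Figure D1:**
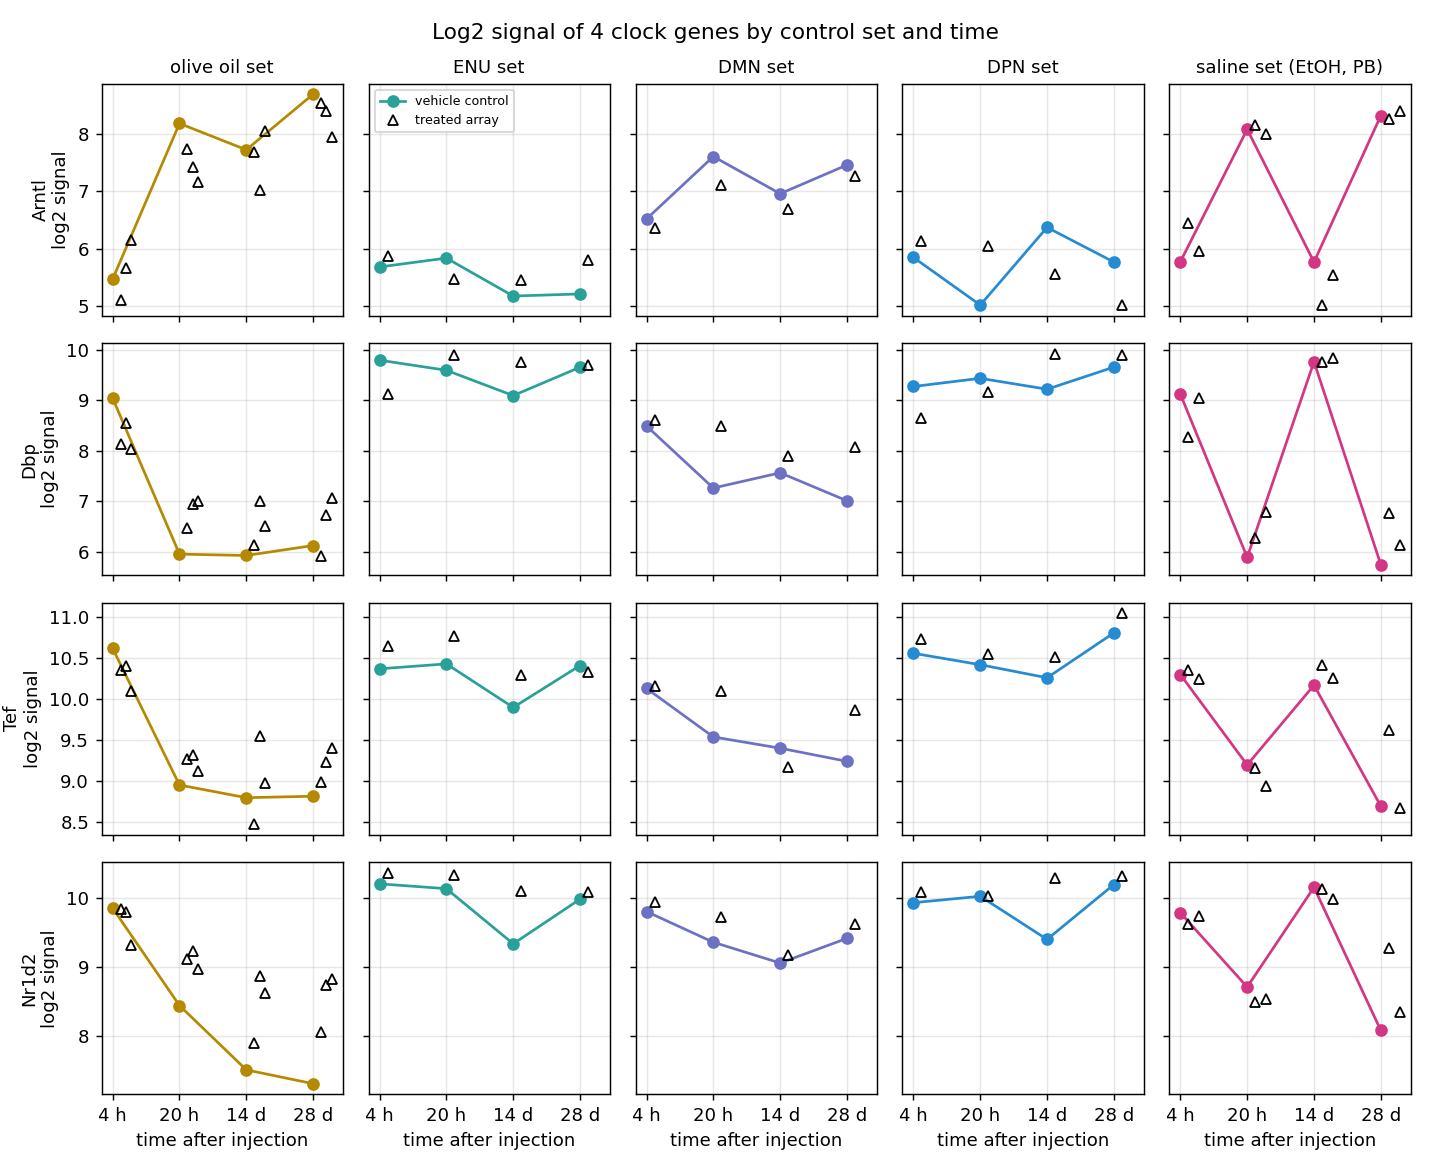
Log2 signal (y axis) of Arntl, Dbp, Tef and Nr1d2 against time after injection (x axis, 4 times evenly spaced) in the 5 control sets. Filled points joined by lines are the vehicle controls, each from other mice, and open triangles, drawn slightly to the right, are treated arrays; in the ENU and DPN sets Dbp lies between 8.64 and 9.92 at all times, while in the olive oil set from 20 h on, and in the saline set at 20 h and 28 days, Dbp is at most 7.06 and Arntl at least 7.02.

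The control set at a given time accounted for most of the spread of several members over the 52 arrays. The share of variance between the 20 combinations of set and time was 93.7% for Arntl, 93.5% for Dbp, 90.4% for Tef, 84.0% for Nr1d2 and 83.9% for Clock. It was 81.9% for Per3, 78.6% for Per2, 78.0% for Per1, 74.2% for Npas2 and 73.0% for Nr1d1. The median over all probe sets was 49.9%, and the 95th percentile was 74.7%. Arntl ranked 4 and Dbp 6 among the 18349 probe sets. Time alone held 23.3% of the variance for Arntl and 12.9% for Dbp, with a median of 13.7% over all probe sets. Control set alone held 37.7% for Arntl and 51.7% for Dbp, with a median of 10.5%.

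To test whether the course over time differed between control sets, all 52 arrays were fitted with a mean for each set at each time, with the control and treated arrays of a set and time as its replicates. This fit was added after the levels above were seen, and any effect of a chemical is part of its spread. The difference in time course between sets was called for 7 of 18 member probe sets, against 0.621% of all probe sets. The 7 were Arntl (adjusted p = 1.05e-06), both probe sets of Dbp (2.53e-06 and 3.99e-05), and the brightest of Tef (0.000622), Nr1d2 (0.0222) and Per2 (0.0418), with the second probe set of Clock (0.0208). Per3 (0.0515), Npas2 (0.0628), Per1 (0.0686), Nr1d1 (0.442) and the brightest probe set of Clock (0.665) did not pass. Without AAT the count was 4, with the values as deposited it was 4, and without the 3 arrays of the saline set at 20 h it was 6.

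Within the olive oil set, 13 of 18 member probe sets differed over the 4 times, against 13.9% of all probe sets, and within the saline set 16 of 18 against 5.22%. The brightest probe set of each of the 10 genes was among them in both sets. The 16 of the saline set include the Tef probe set 1450184_s_at (adjusted p = 0.00197). Its only arrays above the floor were of the saline set, so it passed the filter through that set alone, and its call is no support for a difference. In the ENU, DMN and DPN sets the count was 0 of 18 each, where 1.07%, 2.2% and 0.556% of all probe sets were called. At an unadjusted p under 0.05 the counts in these 3 sets were 0, 5 and 0. These sets have 2 arrays at a time, against 4 in the olive oil set and 3 in the saline set, so they could show less. The count for the saline set was 5 with a term for the class of chemical, under which its control alone sets the level, and 8 with the values as deposited.

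Compared between sets at 1 time, 4 of 18 member probe sets were called at 4 h (4.43% of all), 9 at 20 h (5.24%), 8 at 14 days (1.71%) and 11 at 28 days (2.62%). Dbp was not called at 4 h (adjusted p = 0.402), but was called at 20 h (2.85e-07), 14 days (1.97e-08) and 28 days (6.5e-09). Arntl showed the same series of calls, with an adjusted p of 0.407 at 4 h and of 1.37e-06, 3.39e-06 and 2.41e-09 at the later times. The members called at 4 h were Nr1d1 (adjusted p = 0.00109), Per1 (0.00223), Per2 (0.0025) and the Tef probe set 1450184_s_at (0.0289). This Tef probe set was above the floor in only 4 of 52 arrays, all of the saline set, and was also among those called at 14 days (0.0227). With the values as deposited the counts at 4 h, 20 h and 28 days were 1, 3 and 4.

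**Figure D2:**
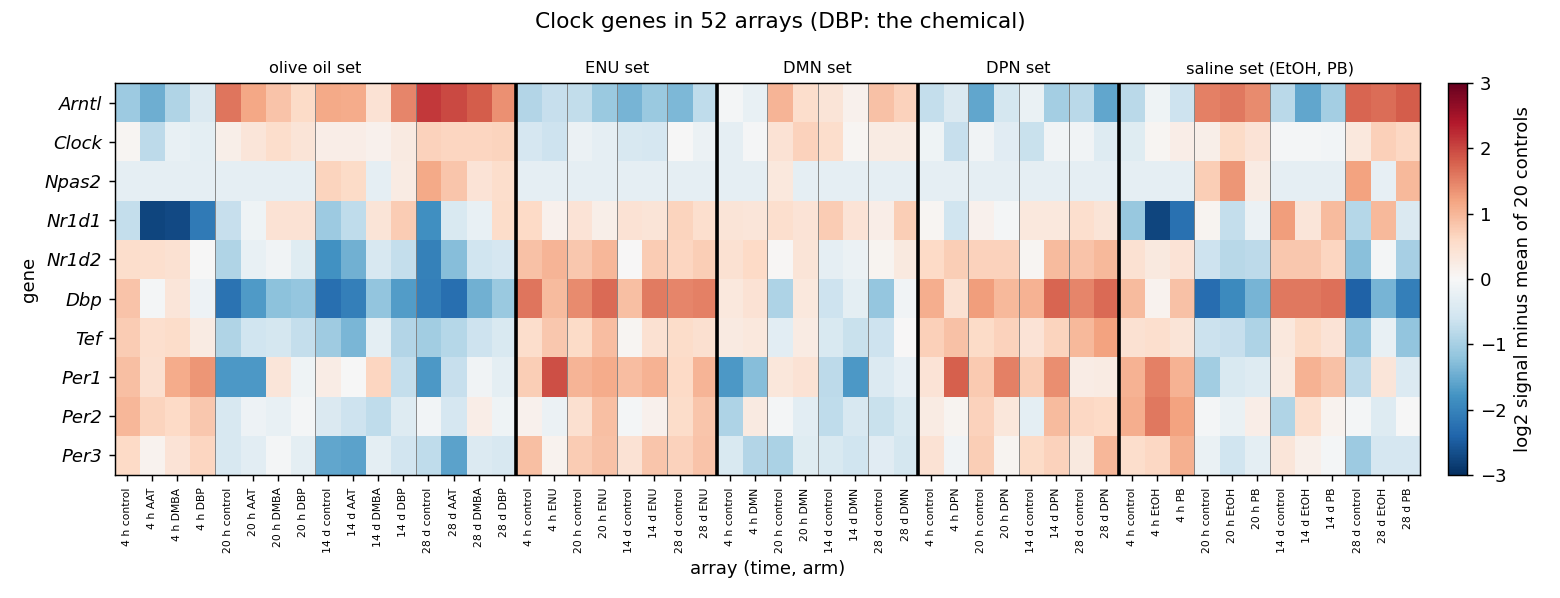
Log2 signal minus the mean of the 20 controls (colour) for the 10 clock genes (rows, brightest probe set) in 52 arrays (columns), grouped by control set and, within a set, by time, with the control first. Red is above the mean of the controls and blue below, and DBP in the labels is dibenzo[a,l]pyrene; Dbp and Arntl have opposite colours in most groups, and Nr1d1 at 4 h is dark blue in the treated arrays of the olive oil and saline sets.

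Among the activators, Arntl in the olive oil set rose from 4 h by 2.02 at 20 h, 2.02 at 14 days and 2.79 at 28 days (SE 0.25 each), with adjusted p-values of 1.66e-06, 8.73e-07 and 7.65e-10. All 4 arrays at 4 h lay below all 4 arrays at each later time. In the saline set Arntl rose by 2.01 (SE 0.29, adjusted p = 2.48e-05) to 20 h and by 2.27 (SE 0.29, adjusted p = 2.56e-06) to 28 days, and at 14 days it was -0.61 from its level at 4 h (SE 0.29, adjusted p = 0.429). Clock, the DNA-binding partner of ARNTL, had the narrowest range among the members, from 5.53 to 6.90 in the controls. It was lowest in the DPN control of 14 days and highest in the olive oil control of 28 days. Its second probe set, 1418660_at, had a correlation of 0.81 with the first over the controls. Clock differed over time in the olive oil set (adjusted p = 0.000302) and in the saline set (adjusted p = 0.0461). Npas2, the other partner, was at the floor in 38 of 52 arrays. Its controls above the floor were those of the olive oil set at 14 days (5.96) and 28 days (6.44), of the DMN set at 20 h (5.60) and of the saline set at 20 h (6.03) and 28 days (6.51). Arntl in these 5 controls lay between 7.61 and 8.69, but the olive oil control of 20 h had Npas2 at the floor with Arntl at 8.18.

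Among the targets of the activator, Dbp in the olive oil set fell from 4 h, with differences of -1.84 at 20 h (SE 0.31, adjusted p = 0.000194), -2.05 at 14 days (SE 0.31, adjusted p = 1.94e-05) and -1.98 at 28 days (SE 0.31, adjusted p = 3.56e-05). In the saline set it fell too, with -2.50 at 20 h (SE 0.35, adjusted p = 1.99e-05) and -2.60 at 28 days (SE 0.35, adjusted p = 7.19e-06), while the difference of 0.97 at 14 days did not pass (adjusted p = 0.226). The 4 olive oil arrays at 4 h ran from 8.04 to 9.04, and the 12 later ones from 5.92 to 7.06, with no overlap. The DMN set was between the others, with 8.49 and 8.61 at 4 h and values from 7.01 to 8.48 later. In the 16 arrays of the ENU and DPN sets Dbp lay between 8.64 and 9.92. The second probe set of Dbp (1438211_s_at) had a correlation of 0.99 with the first over the 20 controls and was at the floor in 9 of 52 arrays.

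Tef, the relative of Dbp whose start region is shown above with its E-box, followed it with smaller steps. In the controls of 4 h Tef was 10.62 (olive oil), 10.37 (ENU), 10.13 (DMN), 10.56 (DPN) and 10.30 (saline). At 20 h it was 8.95, 10.43, 9.54, 10.42 and 9.19 in the same order, and at 28 days 8.81, 10.41, 9.24, 10.81 and 8.69. Tef was low in the same 2 sets as Dbp at these times. From 4 h to 20 h it fell in the olive oil set (-1.21, SE 0.19, adjusted p = 7e-05) and in the saline set (-1.20, SE 0.21, adjusted p = 0.000414). The 2 dim probe sets of Tef, 1438033_at and 1450184_s_at, at the floor in 11 and 48 arrays, did not follow the bright one (correlations of 0.30 and 0.19 over the controls).

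The 2 REV-ERB genes, targets of the activator that in turn repress Arntl, differed from each other. Nr1d2 had the pattern of Dbp. In the controls of 4 h it was 9.85 (olive oil), 10.20 (ENU), 9.80 (DMN), 9.93 (DPN) and 9.78 (saline), and in those of 28 days 7.31, 9.98, 9.41, 10.19 and 8.08. From 4 h to 28 days Nr1d2 fell by 1.47 (SE 0.26, adjusted p = 0.000311) in the olive oil set. In the saline set it fell by 1.15 (SE 0.30, adjusted p = 0.0353) over the same times. From 4 h to 20 h the difference was -0.76 in the olive oil set (SE 0.26, adjusted p = 0.114) and -1.13 in the saline set (SE 0.30, adjusted p = 0.0261). The second probe set of Nr1d2, 1416959_at, had a correlation of 0.79 with the first. It was not called over time in the olive oil set (adjusted p = 0.279) or in the saline set (adjusted p = 0.0814). Nr1d1 did not have the pattern of Dbp. At 4 h it was 7.06 (olive oil), 8.36 (ENU), 8.15 (DMN), 7.84 (DPN) and 6.63 (saline), and at 28 days 5.93, 8.43, 7.98, 8.28 and 6.92. The olive oil and saline controls were thus the lowest at both times. With treated arrays included, Nr1d1 rose from 4 h to 20 h by 2.09 in the olive oil set (SE 0.43, adjusted p = 0.00255) and by 1.77 in the saline set (SE 0.50, adjusted p = 0.0347), against the direction of Dbp. The olive oil controls alone were 7.06 and 7.07 at these times. With a term for class the differences were 1.29 (adjusted p = 0.417) and 1.22 (adjusted p = 1), and the call in the olive oil set was also lost without DMBA (1.73, adjusted p = 0.0674). Over the 20 controls the correlation of Nr1d1 with Dbp was 0.57, and over the 32 treated arrays it was 0.04.

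The period genes, which encode repressors of the activator, were lower at 20 h than at 4 h in the olive oil and saline sets. Per1 fell in the olive oil set (-1.76, SE 0.39, adjusted p = 0.00473) and in the saline set (-1.83, SE 0.45, adjusted p = 0.013). In the controls of 4 h Per1 was 7.66 (olive oil), 7.48 (ENU), 5.02 (DMN, the floor), 7.15 (DPN) and 7.78 (saline), and at 20 h it was 5.02 (the floor), 7.75, 7.08, 7.53 and 5.71. The DMN control of 4 h stood apart from the other controls of that time, and its treated array was 5.46. Per2 fell in the olive oil set (-0.996, SE 0.24, adjusted p = 0.00924) and in the saline set (-1.32, SE 0.27, adjusted p = 0.00279). Unlike Dbp, Per2 in the saline set also fell from 4 h to 14 days (-1.39, SE 0.27, adjusted p = 0.0048). Per3, with D-boxes in its start region, fell by 1.09 (SE 0.30, adjusted p = 0.0278) in the saline set, and in the olive oil set the difference was -0.73 at 20 h (SE 0.26, adjusted p = 0.119) and -1.45 at 14 days (SE 0.26, adjusted p = 0.000204). Without the ethanol arrays the saline-set calls at 20 h minus 4 h were lost for Nr1d1 (adjusted p = 0.26), Nr1d2 (0.18), Per1 (0.179), Per2 (0.12) and Per3 (0.307), and without the phenobarbital arrays for Nr1d1 (0.139), Nr1d2 (0.0942) and Per3 (0.129). Probe set 1417603_at of Per2 and 1460662_at of Per3 followed the brightest less closely, with correlations over the controls of 0.44 and 0.56, and 1421086_at of Per3 was at the floor in 46 arrays.

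For 8 of the 10 members the spread among controls exceeded the spread of the treatment ratios by more than it did for 95% of probe sets. A ratio here is the log2 signal of a treated array minus that of its own control of the same time. For Dbp the SD of the 20 controls was 1.55 and that of the 32 ratios was 0.641. For Arntl these were 1.19 and 0.496, and for Tef 0.699 and 0.328. Over all probe sets the median SD was 0.282 in the controls and 0.344 for the ratios. Nr1d1 was the exception among the bright members, with 0.784 in the controls and 1.12 for the ratios, and Clock, with 0.358 and 0.323, was below the 95th percentile. By the 10 genes together, 16 of the 32 treated arrays were nearest to their own control among the 5 of that time (2 of 12 in the olive oil set, 4 of 4 in the ENU set, 4 of 4 in the DMN set, 0 of 4 in the DPN set and 6 of 8 in the saline set). By 7808 genes above the floor in every control 22 of the 32 were (9 of 12, 3 of 4, 4 of 4, 1 of 4 and 5 of 8 in the same order).

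**Figure D3:**
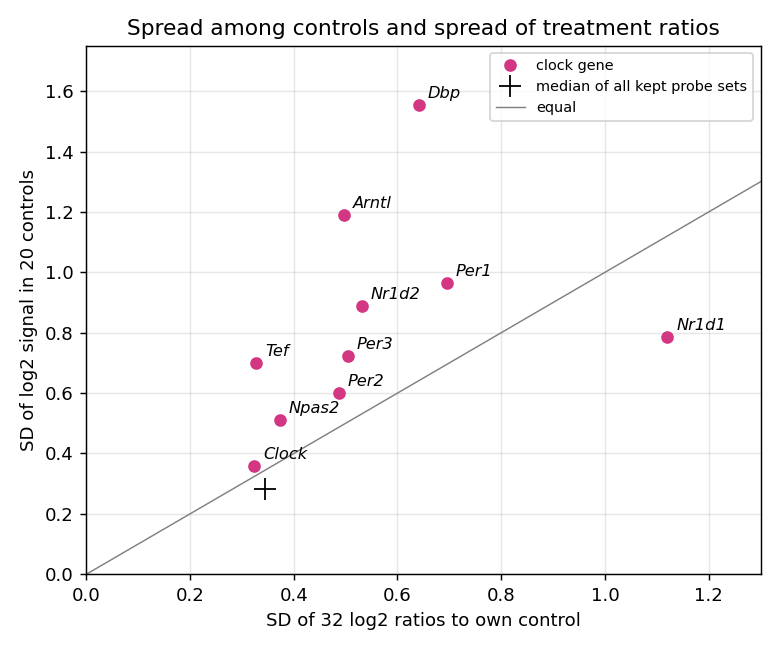
SD of log2 signal over the 20 controls (y axis) against SD of the 32 log2 ratios of treated arrays to their own controls (x axis) for the 10 clock genes; the cross is the median of all kept probe sets and the line marks equal values. Dbp, Arntl and Tef lie far above the line and Nr1d1 lies below it.

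The treated arrays by themselves gave 1 call among the members between 20 h and 4 h, against 2.67% of all probe sets. This was Nr1d1, which rose by 1.63 (SE 0.37, adjusted p = 0.0125). Without the ethanol and phenobarbital arrays of 20 h the rise was 1.79 (adjusted p = 0.0152). Its 8 treated arrays at 4 h ran from 5.02 to 8.14 with a median of 5.59, and those at 20 h from 7.05 to 8.21 with a median of 7.83. The call was lost without DMBA (1.41, adjusted p = 0.0766), without dibenzo[a,l]pyrene (1.50, adjusted p = 0.0612) and with the values as deposited (1.72, adjusted p = 0.186). Without ENU, Clock was called beside it (2 members), and without DPN both probe sets of Clock were (3 members). The 5 controls of 4 h had Nr1d1 from 6.63 to 8.36 and those of 20 h from 7.07 to 8.28.

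Nr1d1 at 4 h was the only member probe set that was lower than its own control under each of the 8 chemicals, a pattern that 0.916% of all probe sets had. Against its control of 7.06, Nr1d1 was at the floor under AAT, a ratio of at least 2.04 on the log2 scale below the control. Under DMBA the ratio was -2.01 and under dibenzo[a,l]pyrene -1.42. Under ethanol Nr1d1 was at the floor against a control of 6.63, so at least 1.61 lower, and under phenobarbital the ratio was -1.09. In the ENU, DMN and DPN sets the ratios were -0.46, -0.02 and -0.66. The 5 treated arrays of the olive oil and saline sets, from 5.02 to 5.64, lay below all 5 controls of 4 h, and the 3 treated arrays of the other sets lay between 7.18 and 8.14. In the class fit the mean effect was -0.86 (SE 0.31, adjusted p = 0.475) for genotoxic and -1.35 (SE 0.57, adjusted p = 1) for non-genotoxic chemicals, and neither passed. The chemicals that share a control share its error.

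**Figure D4:**
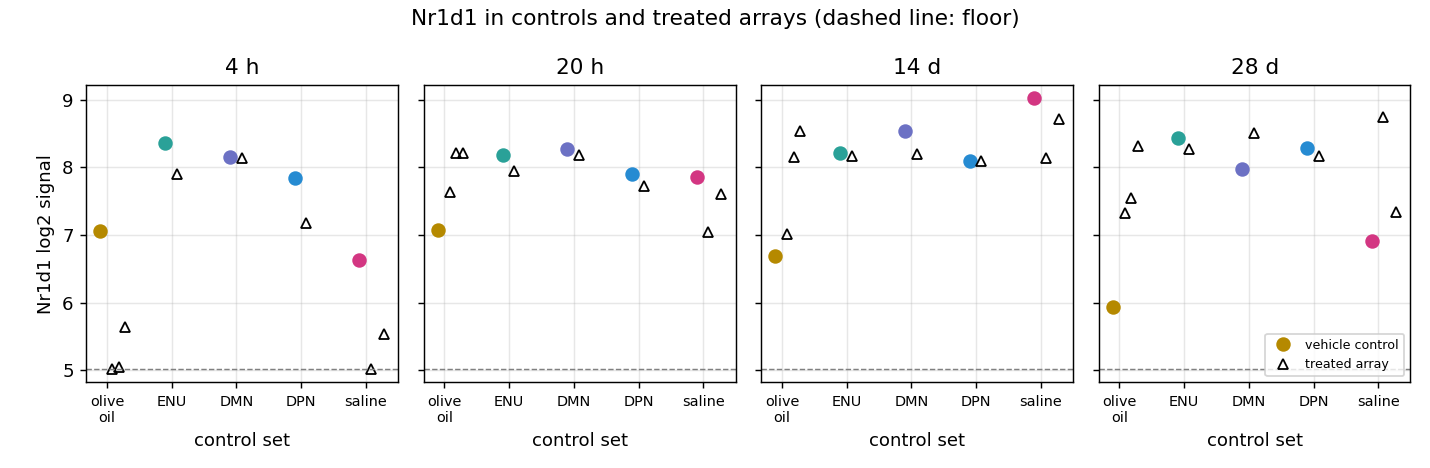
Nr1d1 log2 signal (y axis) in the 5 control sets (x axis) at 4 times (panels). Filled points are vehicle controls, open triangles are treated arrays and the dashed line is the floor; at 4 h the treated arrays of the olive oil and saline sets lie from 5.02 to 5.64, below all controls.

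At later times Nr1d1 was higher than the control under the 3 chemicals given in olive oil. At 28 days the ratios were 1.39 (AAT), 1.61 (DMBA) and 2.38 (dibenzo[a,l]pyrene) over a shared control of 5.93, the lowest Nr1d1 among the 20 controls. Ethanol had a ratio of 1.82 and phenobarbital of 0.43 at that time, and ENU, DMN and DPN of -0.17, 0.53 and -0.12. Nr1d2 at 28 days was higher than its own control under each of the 8 chemicals, with ratios from 0.10 (ENU) to 1.51 (dibenzo[a,l]pyrene), and Per1 was the other member of this kind, with ratios from 0.0017 (DPN) to 1.62 (DMBA). Of all probe sets, 1.62% were higher under all 8 chemicals at that time. The olive oil control of 28 days had the lowest Nr1d2 of all 20 controls, and its Per1 was at the floor, so that ratios of Per1 over it are lower bounds.

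Single ratios of 2-fold or more were counted over the 18 member probe sets and 8 chemicals, which gives 144 ratios at each time. At 4 h there were 10 such ratios lower than the control (1.2% of all ratios) and 4 higher (1.33%). At 20 h there were 1 lower (1.95%) and 11 higher (2.29%), and without the doubtful saline set also 1 lower (1.33%) and 11 higher (1.46%), of 108. At 14 days the counts were 3 lower (1.43%) and 13 higher (2.15%), and at 28 days 1 lower (0.986%) and 19 higher (1.21%). The ratios past 2-fold were thus mostly downward at 4 h and mostly upward at the later times, but they were not spread evenly over the members. Of the 10 lower at 4 h, 6 came from brightest probe sets, and 5 of these were of Nr1d1. Of the 19 higher at 28 days, 13 came from brightest probe sets, most of them over the single olive oil control of that time. These ratios have no replicate, and several share a probe, a gene or a control.

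Dbp was lower than the control at 4 h under 7 of 8 chemicals, with a median ratio of -0.65, and higher at 20 h under 7 of 8, with a median of 0.71. Without the saline set, where the labels are in doubt at 20 h, it was higher under 5 of 6 chemicals, with a median of 0.76. The share of all probe sets with such tallies was not computed, and chemicals that share a control share its error. At 20 h its ratio was 1.23 under DMN, 1.06 under dibenzo[a,l]pyrene and 0.99 under DMBA. The array labelled phenobarbital had a ratio of 0.89 and that labelled ethanol of 0.37, both over the control in doubt. With the labels of control and phenobarbital exchanged both ratios would be negative, because the array labelled phenobarbital had the highest Dbp of the set, 6.78. The nitrosamines DMN and DPN, which differ in their alkyl groups and were given at different doses (5 and 250 mg/kg), had Dbp ratios of 1.23 and -0.28 at 20 h, and no comparison was made between them. The mean effect of the 6 genotoxic chemicals on Dbp was -0.53 (SE 0.21, adjusted p = 0.491) at 4 h and 0.56 (SE 0.25, adjusted p = 0.965) at 20 h. Per1 at 4 h had its highest ratios under DPN (1.38) and ENU (1.20), and at 20 h under DMBA (at least 2.08 over a control at the floor).

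**Figure D5:**
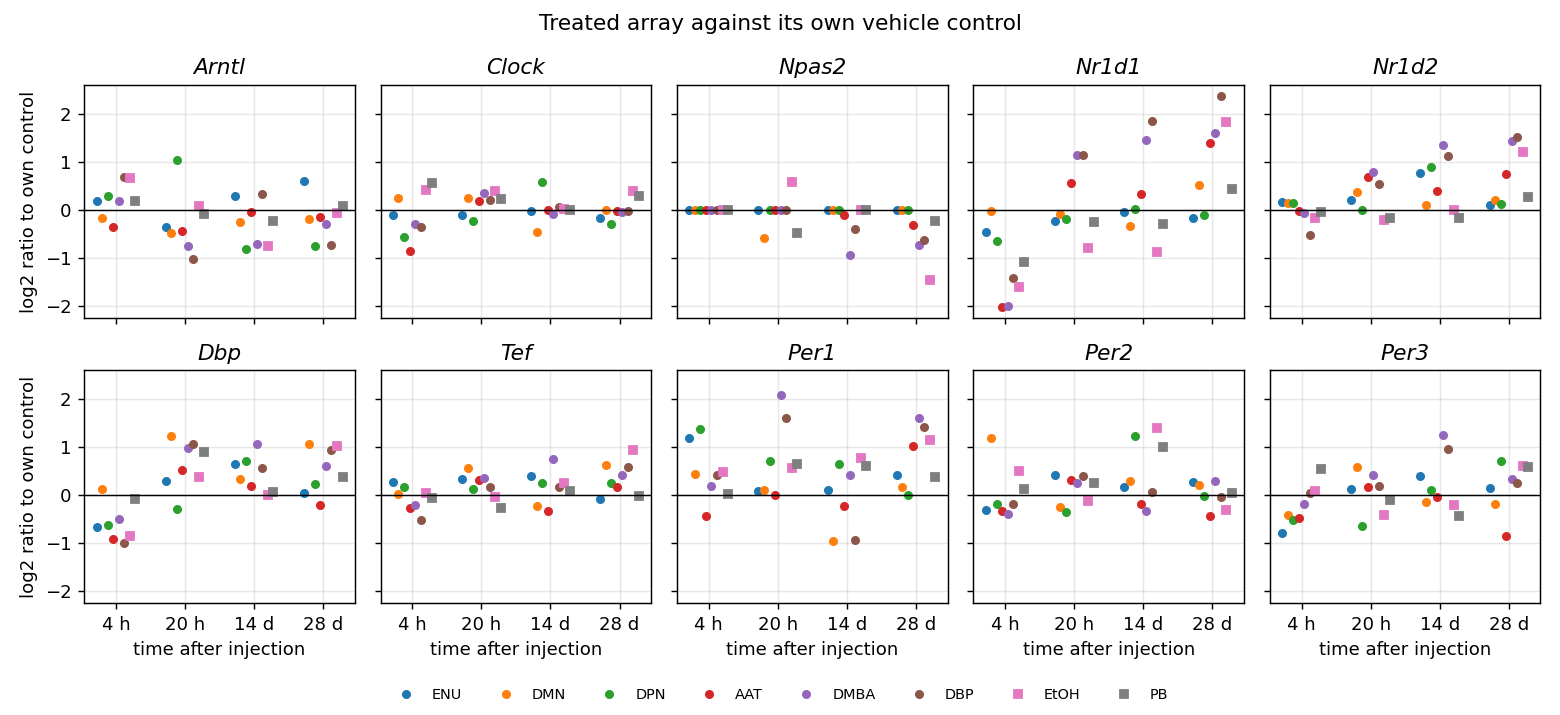
Log2 ratio of each treated array to its own vehicle control (y axis) against time (x axis) for the 10 clock genes, with circles for genotoxic and squares for non-genotoxic chemicals and colours for the chemical (DBP in the key is dibenzo[a,l]pyrene, and the labels of the EtOH and PB ratios at 20 h are in doubt). Nr1d1 at 4 h lies below 0 for each chemical, and Npas2 at 4 h is at 0 because treated and control arrays were all at the floor.

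No member was called for a class of chemical at any time. For genotoxic chemicals against their own controls the members called were 0 of 18 at each time, and the share called among all probe sets was 0% at 4 h, 0% at 20 h, 0% at 14 days and 0% at 28 days. At an unadjusted p under 0.05 the members numbered 4, 2, 2 and 1, and all probe sets 1785, 847, 2164 and 1116. For non-genotoxic chemicals the members called were again 0, against 0.136%, 0.153%, 0.12% and 1.02% of all probe sets at the 4 times, with the labels of 20 h in doubt. For the difference between classes they were 0, against 0.104%, 0.114%, 0.0599% and 0.518%. The genotoxic effect at 20 h minus that at 4 h gave 0 members and 0% of all probe sets, with Dbp at 1.09 (SE 0.33, adjusted p = 0.828). The unadjusted counts for this difference were 3 members and 898 probe sets. The median genotoxic effect of the 18 member probe sets was 0.02 at 4 h and 0.15 at 14 days, against 0.02 and 0.05 over all probe sets.

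The genes whose levels most resembled those of Arntl over the 20 controls, among 7808 genes above the floor in all of them, were Chka, which encodes choline kinase alpha (Pearson r = 0.95), Lgalsl (0.93), Pxmp4 (0.89), Pnkd (0.89) and Grk5 (0.89). In the 32 treated arrays the correlations were 0.96, 0.92, 0.53, 0.71 and 0.76. For Dbp they were Tef (0.95), Upp2, which encodes uridine phosphorylase 2 (0.92), Npc1, which encodes a cholesterol transporter of the lysosome (0.91), Gpr146 (0.90) and Gys2, which encodes liver glycogen synthase (0.90). In the treated arrays these had 0.91, 0.78, 0.80, 0.62 and 0.75. Chka in the olive oil controls was 6.52 at 4 h, 8.14 at 20 h, 8.72 at 14 days and 9.19 at 28 days. In the saline controls it was 6.66, 8.33, 6.40 and 8.83. Chka was lowest at 4 h and highest at 28 days in the olive oil controls, as was Arntl. In the saline controls it was lower at 4 h and 14 days than at 20 h and 28 days, as was Arntl. Chka was chosen for its correlation with Arntl over these same controls, so this likeness follows from the choice and is no separate result.

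Of 15 other genes of the clock, 12 were measured, and the course over time differed between sets for 2 of them, Usp2 (adjusted p = 0.00801) and Wee1 (adjusted p = 0.00292). Usp2 encodes a deubiquitinating enzyme and Wee1 a kinase that restrains mitosis. The share of all probe sets was 0.621% in this fit. In the olive oil set 5 of the 12 differed over time (13.9% of all probe sets) and in the saline set 7 (5.22%). Mean Usp2 in the saline set was 9.32 at 4 h and 6.65 at 20 h, and mean Wee1 was 8.40 and 5.73. Cry1 and Cry2, partners of the PER proteins, differed over time in both sets (Cry1 adjusted p = 0.00104 and 0.0079, Cry2 0.046 and 0.0148). Nfil3, a repressor at D-boxes, was called in the saline set (adjusted p = 0.00338) with 6.69 at 4 h and 7.65 at 20 h. In the olive oil set Nfil3 was not called (adjusted p = 0.395) and went the other way, from 7.985 at 4 h to 7.538 at 20 h. Bhlhe40, a repressor at E-boxes, was called in the saline set too (adjusted p = 0.0319) with 9.02 at 4 h and 7.43 at 20 h.

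Of 12 liver genes known to follow the clock, 11 were measured and 7 differed in time course between sets (0.621% of all probe sets), with 9 called over time in the olive oil set (13.9%) and 9 in the saline set (5.22%). By size the first 4 were Cyp7a1, the rate-limiting enzyme of bile acid synthesis (adjusted p = 0.0102), Elovl3, which elongates fatty acids (1.35e-05), Alas1, the rate-limiting enzyme of heme synthesis (0.0355), and Gys2 (2.05e-07). In the saline set mean Cyp7a1 was 11.33 at 4 h and 9.11 at 20 h, and mean Alas1 was 12.16 and 10.07, in the direction of Dbp. Mean Gys2 in the olive oil set was 10.36 at 4 h and 8.57 at 20 h, in the same direction. Elovl3 was 9.48 at 4 h and 10.97 at 20 h, in the direction of Arntl. Nampt, the rate-limiting enzyme of NAD salvage (adjusted p = 1.99e-05), and Insig2 (0.000238), both named after their values were seen, had olive oil means of 9.32 and 10.02 at 4 h and of 8.01 and 10.78 at 20 h.

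Lists of other inputs to the liver were counted in the same fit, where 13.9% of all probe sets were called over time in the olive oil set and 5.22% in the saline set. Of 6 genes induced by glucocorticoids 0 differed in time course between sets, and Fkbp5 was called over time in the olive oil set (adjusted p = 2.2e-05) and the saline set (0.000176), from a mean of 10.26 at 4 h to 8.73 at 20 h in the first. Dusp1 was called in the olive oil set (adjusted p = 0.0232), with 8.95 at 4 h and 7.49 at 20 h. Of 6 genes of fasting and 5 measured genes of feeding 0 differed in time course between sets. Over time in the olive oil set 2 of 6 fasting genes (Igfbp1 and Cpt1a) and 1 of 5 feeding genes (Thrsp) were called, of which the feeding share is near that of all probe sets, and in the saline set Cpt1a, Thrsp and Fasn. Cpt1a, which carries fatty acids into mitochondria, had an adjusted p of 0.0705 for the difference in time course. Of 5 measured temperature-responsive genes 1 did, Hspa1b (adjusted p = 0.0465). Their part in the values of the clock genes was not tested.

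The 5 measured hepatocyte markers were far above the floor in all controls, for example Alb, which ran from 13.15 to 13.90. The summed hepatocyte signal over the arrays of a set ran from 34720 to 56580 in the olive oil set, from 47040 to 64510 in the ENU set, from 42940 to 63060 in the DMN set, from 45380 to 65380 in the DPN set and from 41630 to 76480 in the saline set. The highest sum of the saline set was at 28 days, where its median was 47830. For hepatocyte, Kupffer cell, endothelial, lymphocyte, stellate cell, bile duct and pancreas markers 0 genes were called for a difference in time course between sets, and 0 over time in the saline set. Over time in the olive oil set 1 marker each was called for Kupffer cells (Cd5l, adjusted p = 0.00263), lymphocytes (Cd3e, 0.00171), stellate cells (Dcn, 0.00131) and pancreas (Cela1, 0.00536). Between sets at 4 h, 2 of 6 Kupffer cell markers and 1 of 5 hepatocyte markers were called (4.43% of all probe sets). At 20 h 1 of 5 hepatocyte, 1 of 5 stellate cell and 1 of 2 pancreas markers were called (5.24%), and at 28 days 1 of 5 endothelial markers (2.62%). Their part in the clock gene values was not tested. In pooled liver RNA fewer cells of a type and less RNA per cell cannot be told apart. Without all 3 arrays of the saline set at 20 h, 15 of 18 members differed over time in the saline set.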

How the data were processed

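Liver RNA pooled from 5 mice was labelled with biotin and hybridised by the authors to 1 Affymetrix array for each of 8 chemicals and 5 controls at 4 times. The deposited values are linear probe-set intensity, and no source used here names their software or scaling. Medians per array were 17.9 (phenobarbital at 28 days) to 205.1 (DMN control of 14 days), so these 2 arrays were changed most by the scaling. Arrays were scaled to a common median, the mean over arrays. A floor was set at the 30th percentile, log2 was taken, and 18349 probe sets that exceeded it in 4 or more arrays were retained. Low levels are compressed at the floor. Fits used limma 3.58.1 in R 4.3.3 (lmFit, eBayes with trend) with Benjamini-Hochberg adjustment over all kept probe sets and a threshold of 0.05. Residual degrees of freedom were 16 for the controls by time, 28 for the treated arrays, 6 for classes at 1 time with control set as a block, 24 for the change of a class effect and 32 for set and time. Fits were tested on simulated data in which the noise of each array was independent. Differences shared by the arrays of a control set were not simulated apart from the changes put in, so these tests do not cover such shared spread. The number of arrays limits the precision.

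All member genes are named with every probe set. Of the other lists, up to 6 other clock genes with the largest differences in the controls and up to 4 called genes of each further list by size were named, and for Arntl and Dbp the 5 genes of highest Pearson r. Members and lists were chosen with earlier results of these data known. Gene symbols come from the platform annotation, and sequences from RefSeq. Python 3.11.15 with matplotlib 3.10.9 served for the figures.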

Additional observations from a re-analysis of the deposited data

Results flagged for a closer look

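The time course of 7 member probe sets differed between control sets in the fit of set and time, which was added after the levels were seen. The adjusted p-values were 1.05e-06 for Arntl, 2.53e-06 and 3.99e-05 for the 2 probe sets of Dbp, 0.000622 for Tef, 0.0208 for the second probe set of Clock, 0.0222 for Nr1d2 and 0.0418 for Per2. In the 39 groups of 5 controls that were examined, 2 held a value far from the others. For values of 1 population without a floor, chance gives about 1 in 20. Both flagged groups held values at the floor, and the controls come from different sets, so this rate does not apply to them. Npas2 was 5.96 in the olive oil control of 14 days, while the other 4 controls were at the floor of 5.02. Per1 was at the floor, 5.02, in the DMN control of 4 h, while the nearest of the others was 7.15.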

How the results depend on the processing

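Alternatives were quantile scaling, values as deposited, floors at the 20th and 40th percentile, no filter, no variance trend, and changes of block or arrays. The control set, by which the labels tie treated arrays to a control, was a block in the class fits, and as a block in the controls by time it left the members called at 0. No paired analysis by replicate number was possible because each chemical and control has 1 array per time. The count of members called over time stayed at 0 for the controls, other than for 14 days minus 4 h (from 0 to 1 when the controls of a set were left out, with Per2 called without the DMN controls). For treated arrays at 20 h minus 4 h it was 0 with the values as deposited, 2 with the chemical as a block and from 0 to 3 without single chemicals. Class counts ranged from 0 to 1 without single chemicals for non-genotoxic chemicals and for the difference between classes (a Tef probe set, 1450184_s_at, without ethanol or without phenobarbital), and were 0 under the other alternatives. Without the saline set at 20 h no effect of non-genotoxic chemicals can be had at that time. The count for set by time was 4 with the values as deposited and from 4 to 9 without single chemicals. With the values as deposited the count was 1 for times in the DMN set, 8 for times in the saline set, and 1, 3 and 4 for sets at 4 h, 20 h and 28 days. With a term for class within time it was 1 in the DMN set and 5 in the saline set. For these cases the cause was not tested. Of 362 named values under an alternative, 318 kept their direction and side of the threshold, 43 fell short of it, 1 newly passed it and 0 reversed. Where a chemical was left out of a set with 1 treated array, the lone control was assumed to vary like the other groups.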
